A study of Mus musculus with 4 samples.

Results

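The miR-34 family was followed through its mature arms in the stromal vascular fraction (SVF) of visceral white adipose tissue (visWAT) after β3-adrenergic stimulation. The members were the miRNAs named mmu-miR-34a-5p, mmu-miR-34b-5p, mmu-miR-34b-3p, mmu-miR-34c-5p and mmu-miR-34c-3p on the array (mmu stands for mouse and is left out below), taken by name from all spots that are not controls, which gave 5 of the 1247 miRNAs printed there. The rule uses names alone, and the family was chosen with earlier results of these arrays known. The study used CL-316243 (CL), an agonist of the β3-adrenoceptor, to induce browning of white fat, and asked which miRNAs of the SVF change early in that process. The SVF is what remains of digested fat once the floating adipocytes are removed, and it holds preadipocytes, fibroblasts, vascular cells and leukocytes.

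RNA from visWAT SVF was hybridised to 4 one-colour Agilent mouse miRNA arrays. The vehicle group (2 arrays) came from mice given PBS for 3 days, and the CL group (2 arrays) from mice given 1 mg/kg of CL dissolved in PBS for 3 days. All mice were females of 8 weeks, described as C57/BL6 in the protocol and kept at room temperature on standard diet, and no group carried a transgene or a deleted gene. The strain entry differs from sample to sample in its final digit, and the route of injection is subcutaneous in the labels and intraperitoneal in the methods of the study. The methods also describe a move to thermoneutral housing ahead of experiments, where the labels give room temperature. Each array held RNA pooled from several mice, so the spread between the arrays of a group is a spread between pools.

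All 4 arrays lay on 1 slide, the vehicle arrays in its row 1 and the CL arrays in its row 2, so slide row and treatment cannot be told apart. Replicate 1 of each group lay in column 3 and replicate 2 in column 4. The mean of the 1000 negative control spots followed the column, at 37.1 and 38.6 scanner units for vehicle 1 and CL 1 and at 31.7 and 32.8 for vehicle 2 and CL 2. The scanner software detected 386 to 431 miRNAs per array, and 425 that were detected on both arrays of a group were tested. Vehicle 2 stood apart from vehicle 1 in a way that followed the probes. Across the 425 miRNAs, the difference of vehicle 2 from vehicle 1 had a Spearman's rho of -0.60 with the length of the longest probe. The change after CL had a rho of 0.47 with the same length, and both changes were read from the same arrays, so the values of the miR-34 arms are given below also without this trend and without vehicle 2.

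The miR-34 family is best known as a set of miRNAs whose genes p53 activates, and it slows the cell cycle and favours cell death by lowering proteins such as cyclin D1, CDK6, BCL2, MET and NOTCH1. A hairpin precursor can give a 5p arm and a 3p arm, and in this family the 5p arm is usually the one that accumulates. In fat, miR-34a is known from obesity research, where it lowers SIRT1, the FGF receptor FGFR1 and its co-receptor β-Klotho and holds back browning. Mir34a is a gene of its own, whereas Mir34b and Mir34c are made from 1 shared primary transcript, most abundant in testis and in ciliated epithelium.

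The mature sequences below show why the family is read by its arms, since the seed, the stretch that pairs with target mRNAs, is printed in capitals (bases 2 to 8). They come from RefSeq (GRCm38.p6), which matched 4 of the 5 members, and miR-34c-5p is named only.
miR-34a-5p: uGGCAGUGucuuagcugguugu
miR-34b-5p: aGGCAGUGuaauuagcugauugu
miR-34b-3p: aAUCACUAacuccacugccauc
miR-34c-3p: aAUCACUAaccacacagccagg
miR-449a-5p: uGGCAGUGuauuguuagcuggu

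The seed GGCAGUG of miR-34a-5p and miR-34b-5p occurs in 4 of the 1738 mature mouse miRNAs of the table, the others being miR-449a-5p and miR-449c-5p. The table has no entry for miR-34c-5p, so this count could not include it. The seed AUCACUA of both 3p arms of the cluster occurs in 2, and these are miR-34b-3p and miR-34c-3p themselves. The printed 5p and 3p arms therefore read different target sites, and miR-34a-5p and miR-34b-5p, 1 from each locus, share theirs.

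In GRCm38.p6, Mir34a lies at chr4:150068454-150068555 on the plus strand and overlaps no other annotated gene. Its mature 5p arm is at chr4:150068473-150068494. Mir34c lies at chr9:51103034-51103110 and Mir34b at chr9:51103562-51103645, both on the minus strand and with 451 bases between them. The pair lies inside the spans of the protein-coding genes Hoatz and Btg4, and whether an exon or an intron of these is met was not determined here. The mature arm miR-34b-5p is at chr9:51103610-51103632, miR-34b-3p at chr9:51103574-51103595 and miR-34c-3p at chr9:51103044-51103065.

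All 3 arms that were detected, miR-34a-5p, miR-34b-5p and miR-34c-5p, were higher on both CL arrays than on both vehicle arrays. Signals are log2 of quantile-normalized spot signal, and a change is the CL mean minus the vehicle mean on this scale. In limma's moderated test across the 425 miRNAs, all 3 passed an unadjusted p of 0.05, the threshold that the methods of the study name, and none passed it after Benjamini-Hochberg adjustment. At the unadjusted threshold 79 of the 425 tested miRNAs (18.6%) were higher after CL, and both CL arrays lay above both vehicle arrays for 162 (38.1%). A change above 0 was measured for 209 (49.2%). With adjustment, 0 of 425 passed (0%) in limma, while 148 passed without it (34.8%). Significance analysis of microarrays (SAM) and the unpaired test that the methods of the study name also gave 0 after adjustment, and 60 and 52 before it. The median change of the 3 arms was 1.32, beside a median of -0.01 and quartiles of -0.33 and 0.34 over all tested miRNAs.

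For miR-34a-5p, the arm of the separate locus, the log2 signal was 7.33 on vehicle 1 and 6.996 on vehicle 2, against 7.85 on CL 1 and 7.92 on CL 2. The groups did not overlap, and the lower CL array lay above the higher vehicle array by more than the gap between the vehicle arrays. The mean went from 7.16 ± 0.23 to 7.89 ± 0.05 (SD, n = 2 arrays each), a change of 0.72 ± 0.16 (SE) or 1.65-fold, with a 95% confidence interval of 0.30 to 1.15. limma gave an adjusted p of 0.103 (0.00835 before adjustment). The increase was the 42nd highest of 425.

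For miR-34b-5p, the log2 signal was 6.19 on vehicle 1 and 5.06 on vehicle 2, against 7.39 on CL 1 and 7.26 on CL 2. The CL arrays lay close to each other, and vehicle 2 lay far below vehicle 1. The mean went from 5.63 ± 0.80 to 7.32 ± 0.09 (SD, n = 2 arrays each), a change of 1.70 ± 0.40 (SE) or 3.24-fold, with a 95% confidence interval of 0.63 to 2.76. limma gave an adjusted p of 0.103 (0.0105 before adjustment). This increase was the 6th highest of the 425, and the gap of -1.13 between vehicle 2 and vehicle 1 was the 12th largest, beside a median gap of 0.27 in size.

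For miR-34c-5p, made from the same transcript, the log2 signal was 5.50 on vehicle 1 and 4.75 on vehicle 2, against 6.49 on CL 1 and 6.40 on CL 2. Again the groups did not overlap and vehicle 2 was the dimmest array. The mean went from 5.12 ± 0.53 to 6.44 ± 0.06 (SD, n = 2 arrays each), a change of 1.32 ± 0.28 (SE) or 2.49-fold, with a 95% confidence interval of 0.57 to 2.06. limma gave an adjusted p of 0.103 (0.00715 before adjustment). The increase was the 12th highest of 425, and its vehicle gap of -0.75 was the 37th largest.

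An exact permutation test over the 4 arrays gave p = 0.333 for each of these arms, which is the smallest value that 2 arrays against 2 allow. In bulk RNA, more cells of a type that holds these miRNAs and more miRNA per cell cannot be told apart.

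**Figure D1:**
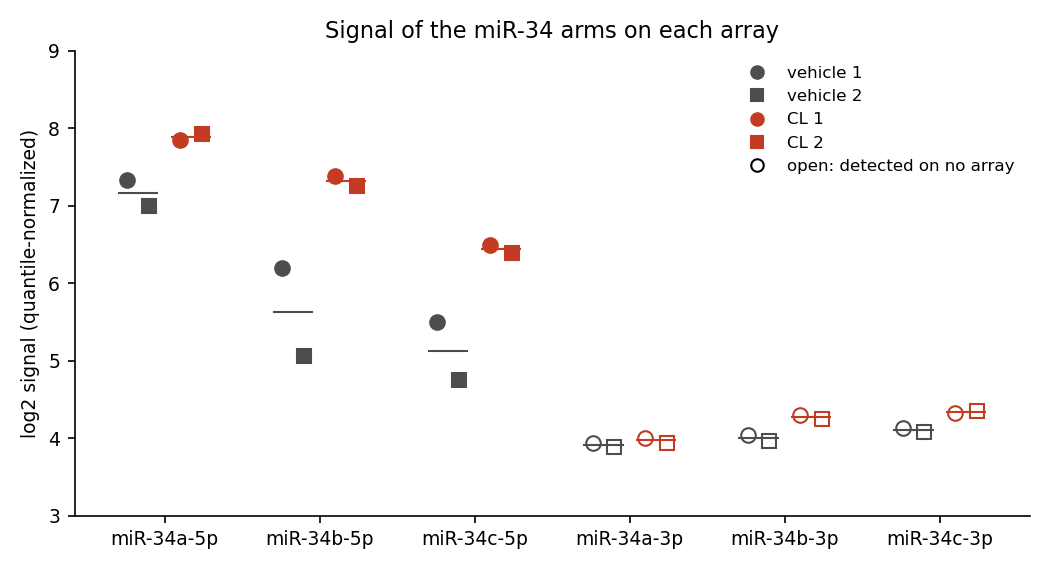
Log2 signal (quantile-normalized, vertical axis) of the 5 miR-34 arms and of miR-34a-3p on each array. Grey marks are vehicle and red marks CL, circles replicate 1, squares replicate 2 and short lines group means; the CL marks of the 5p arms lie above all their vehicle marks, and open marks show the 3p arms, detected on no array.

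The 3p arms of the cluster were detected on 0 of the 4 arrays and were not tested. In the order vehicle 1, vehicle 2, CL 1 and CL 2, the log2 signal of miR-34b-3p was 4.04, 3.96, 4.30 and 4.24. That of miR-34c-3p was 4.13, 4.08, 4.33 and 4.35. Both were not well above background in either group, so no fold change is given. The passenger arm of the separate locus, miR-34a-3p, which is not a member, was likewise detected on no array, with log2 signals of 3.89 to 3.9998.

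Each arm was read by 2 probes of different length, printed in 20 spots each. The longest probes of miR-34a-5p and miR-34b-5p are shown because they carry the values of both loci, with the bases that pair with the seed in capitals.
miR-34a-5p probe: acaaccagctaagaCACTGC
miR-34b-5p probe: acaatcagctaattaCACTGCC

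Compared base by base without gaps, the longest probes of miR-34b-5p and miR-34c-5p shared 18 of 20 bases, with a longest run of 11. The longest probe of miR-34a-5p shared 11 bases with that of miR-34b-5p and 10 with that of miR-34c-5p, with a longest run of 7 in both cases. How much of the signal of one cluster arm comes from RNA of the other was not tested.

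The medians of the raw spot signals, before any normalization, lay in the same order of the groups. On the 22-base probe of miR-34b-5p, the median of the spots was 118 scanner units on vehicle 1 and 54.9 on vehicle 2, against 212 on CL 1 and 206 on CL 2. The spots of the groups did not overlap, since the brightest vehicle spot gave 125 and the dimmest CL spot 189. All 20 spots were well above background on every array. On the 21-base probe the medians were 84.4, 43.3, 144 and 143, and the number of spots well above background was 20, 3, 20 and 20 in the same order of vehicle 1, vehicle 2, CL 1 and CL 2. The shorter probe of miR-34b-5p was thus close to background on vehicle 2.

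For miR-34c-5p, the 20-base probe gave medians of 88.6 on vehicle 1 and 49.8 on vehicle 2, against 147 on CL 1 and 148 on CL 2, with 20, 18, 20 and 20 spots well above background. The brightest vehicle spot gave 104 and the dimmest CL spot 133. Its 19-base probe gave 56.3, 36.5, 78.5 and 76.6, and on vehicle 2 none of its 20 spots was well above background, beside a negative control mean of 31.7. The dim end of the miR-34c-5p change thus lay close to background on 1 of its 2 probes.

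For miR-34a-5p, the 20-base probe gave medians of 274 on vehicle 1 and 200 on vehicle 2, against 314 on CL 1 and 356 on CL 2, and the 19-base probe gave 140, 102, 162 and 187. All spots of both probes were well above background on all 4 arrays. Before normalization the spots of its groups overlapped, though the array medians did not. The brightest vehicle spot gave 298 and the dimmest CL spot 296 on the 20-base probe, and 165 and 152 on the 19-base probe. Spots of a probe are repeats within 1 array, so their overlap or separation does not measure the spread between pools.

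After normalization, the changes were 0.73 and 0.72 for the shorter and the longer probe of miR-34a-5p, 1.67 and 1.75 for miR-34b-5p and 1.18 and 1.53 for miR-34c-5p. The values of 1.67 and 1.18 come from the probes that were mostly or wholly not well above background on vehicle 2. They carry that limit, and how far background set their size was not tested. The probes of the 3p arms had medians of 30.2 to 44.0 scanner units, near the negative controls, with 1 spot of miR-34b-3p well above background.

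**Figure D2:**
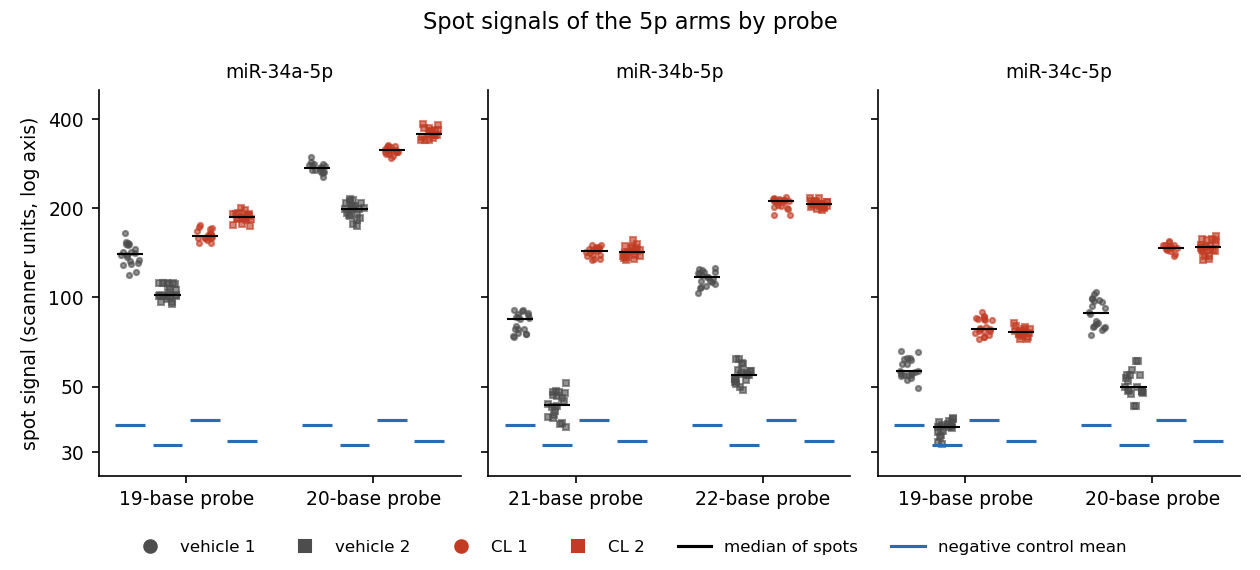
Raw spot signal (scanner units, log axis) of each probe of the 5p arms on the 4 arrays, without outlier spots; black lines are medians of the spots and blue lines the mean of the negative controls of that array. The vehicle and CL spots of the miR-34b-5p and miR-34c-5p probes do not overlap, and the vehicle 2 spots lie nearest to the negative controls.

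The separate locus and the cluster were then set against each other. The change of miR-34b-5p exceeded that of miR-34a-5p by 0.97 ± 0.41 (SE) on the log2 scale, with a 95% interval of -0.80 to 2.74. The level of one arm against another has no meaning across probes, so only the shift of the difference between arms was read, and miR-34b-5p minus miR-34a-5p was -1.14 and -1.93 for vehicle and -0.46 and -0.66 for CL. The change of miR-34c-5p exceeded that of miR-34a-5p by 0.59 ± 0.23 (SE), with an interval of -0.38 to 1.56. Here these differences were -1.83 and -2.25 for vehicle and -1.36 and -1.52 for CL. Both CL arrays thus lay above both vehicle arrays in each contrast, while both intervals include 0. The exact permutation test (two-sided, 2 contrasts) gave p = 0.333 for each, also after adjustment over both, the smallest value that it can give here. A larger change of the cluster arms is therefore the measured order, and it was not separated from the spread between arrays.

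Between the cluster arms, the change of miR-34b-5p exceeded that of miR-34c-5p by 0.38 ± 0.19 (SE), with an interval of -0.43 to 1.20. No contrast was made for the 3p arms, which were not detected. The size of the cluster contrast depended on the background correction. With the local background of each spot subtracted in the normexp model and an offset of 50 added to every signal, the changes were 0.56 for miR-34a-5p, 1.103 for miR-34b-5p and 0.66 for miR-34c-5p, and miR-34c-5p exceeded miR-34a-5p by 0.10. In the table of log2 values that the authors deposited, the changes were 0.82, 2.21 and 2.20 in the same order. There limma gave 0.0463, 0.0509 and 0.0561 before adjustment, so the cluster arms did not pass the unadjusted threshold.

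The slide columns held 1 array of each group, so each column gave a change of its own. In column 3, CL 1 minus vehicle 1 was 0.53 for miR-34a-5p, 1.20 for miR-34b-5p and 0.99 for miR-34c-5p. In column 4, CL 2 minus vehicle 2 was 0.92, 2.20 and 1.65. All 3 arms were higher after CL in both columns, and by more in the column that held vehicle 2. With the column as a block, limma gave adjusted p-values of 0.0653 for miR-34a-5p, 0.0428 for miR-34b-5p and 0.0428 for miR-34c-5p, and 15 of the 425 miRNAs (3.53%) were called higher. When the median polish that joins the spots of a miRNA was run to a finer tolerance, the same block gave 0.0212, 0.00111 and 0.00184, and 58 of 425 (13.6%) were called higher.

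The size of these changes depended on which vehicle array was used. Without vehicle 2 the changes were 0.56, 1.13 and 0.94 for miR-34a-5p, miR-34b-5p and miR-34c-5p, with limma adjusted p-values of 0.0551, 0.0506 and 0.0506. Without vehicle 1 they were 0.89, 2.26 and 1.69, with adjusted p-values of 0.00845, 0.00564 and 0.00564. In both cases the lone vehicle array is taken to vary as the CL arrays do. The longest probes of the 3 arms have 20, 22 and 20 bases, beside a median of 17 over the tested miRNAs. After the linear trend of each array on the length and on the C and G share of the longest probe was removed, the changes were 0.53 (adjusted p = 0.0477 in limma), 1.33 (0.0369) and 1.07 (0.0317), and 22 of 425 (5.18%) were called higher. The direction was thus the same in all of these fits, whereas the adjusted call changed between them.

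**Figure D3:**
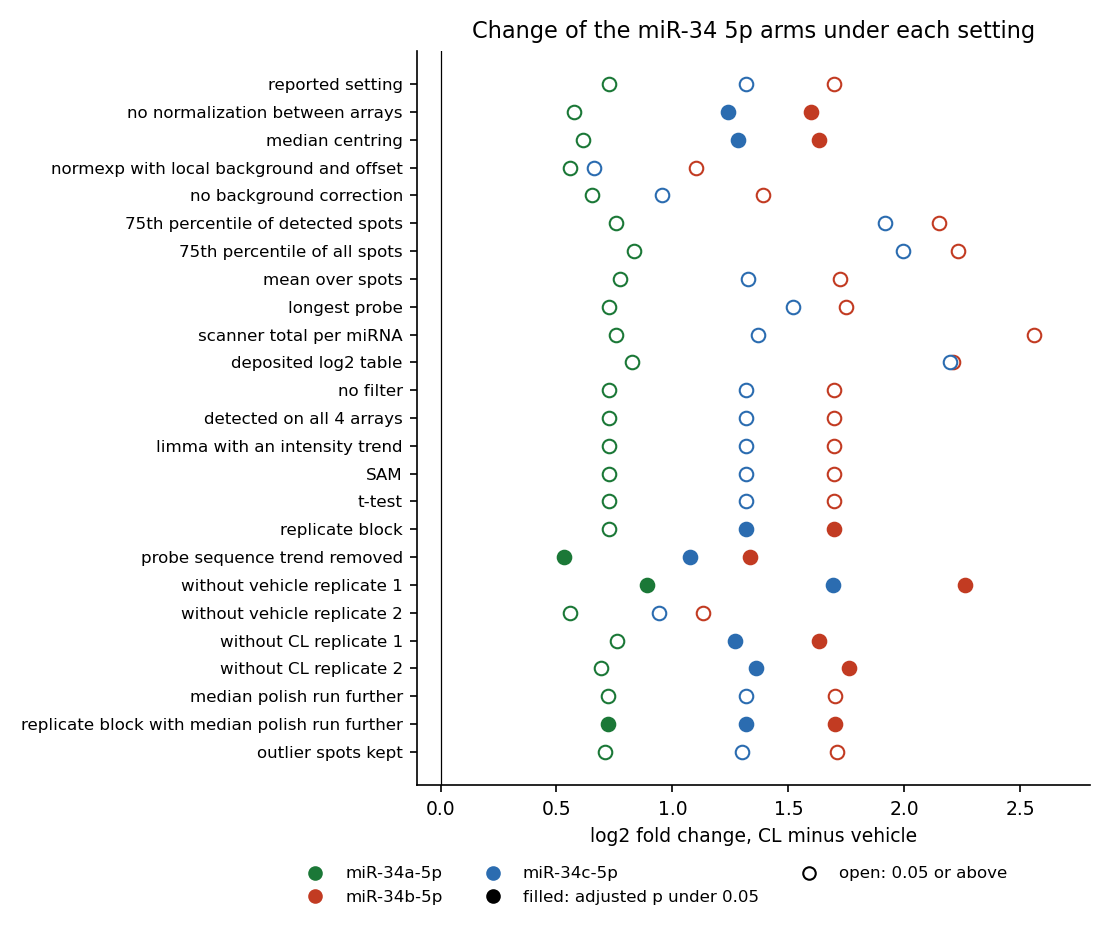
Change of miR-34a-5p, miR-34b-5p and miR-34c-5p (log2 fold change, CL minus vehicle, horizontal axis) under the reported setting and under each alternative; filled circles have an adjusted p under 0.05. All values lie above 0, and under the reported setting all 3 circles are open.

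The tests named by the study gave weaker values for the same arms. A rebuilt SAM, pooling its p-values over relabelled arrays, gave unadjusted permutation p-values of 0.0345 for miR-34a-5p, 0.0737 for miR-34b-5p and 0.0502 for miR-34c-5p, and it called 33 of 425 miRNAs (7.76%) higher at the unadjusted threshold. In that test miR-34a-5p passed, and the cluster arms did not. The unpaired test passed none of the 3 arms and called 32 of 425 (7.53%) higher without adjustment.

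The tested miRNAs whose profile over the 4 arrays was most like that of each arm were found by the Euclidean distance between log2 profiles centred on their own means. For miR-34a-5p these were miR-127-3p, miR-455-3p and miR-100-5p, at distances of 0.0929, 0.0943 and 0.0953 and with changes of 0.67, 0.69 and 0.72. For miR-34b-5p they were miR-199b-5p, miR-376a-3p and miR-136-5p, at 0.244, 0.261 and 0.306 and with changes of 1.48, 1.62 and 1.89. For miR-34c-5p they were miR-218-5p, miR-199a-5p and miR-376b-3p, at 0.210, 0.228 and 0.236 and with changes of 1.12, 1.15 and 1.11. Among the other 424 tested miRNAs, miR-34c-5p was the 9th nearest to miR-34b-5p and miR-34b-5p the 16th nearest to miR-34c-5p, at a distance of 0.466. miR-34a-5p was the 40th nearest to miR-34b-5p, at 1.13, and the 33rd nearest to miR-34c-5p, at 0.67. From miR-34a-5p, at the same distances, miR-34b-5p was the 305th nearest and miR-34c-5p the 145th. The distance between the cluster arms was thus shorter than that of either to the separate locus, which is a description over 4 arrays. The profiles were not scaled, so the distances restate in part the sizes of the changes and vehicle gaps given above.

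The miR-449 family carries the seed of the 5p arms and is known from multiciliated epithelium. The log2 signal of miR-449a-5p was 4.32, 4.14, 4.44 and 4.59 in the array order used above, and it was detected on CL 2 alone. miR-449b and miR-449c-5p were detected on no array. Of the 6 arms that were listed for this seed, the 3 of the miR-34 family were thus the ones that could be tested. Neither miR-34c-5p nor miR-449b is among the 4 sequences counted above with this seed, so their place in the list does not rest on that count.

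Other miRNAs whose genes or processing p53 is known to raise were counted from a list. Of 9 listed, 8 were tested, with 1 higher, 2 lower and 5 not past the unadjusted threshold, beside 79 higher (18.6%) and 69 lower (16.2%) of all 425. Their median change was -0.07. As miR-192-5p, miR-194-5p and miR-215-5p were added after their values were seen, this count and median are no independent evidence. miR-22-3p was higher by 0.44 (0.0159 in limma before adjustment). miR-145a-5p fell by 0.75 (0.00264) and miR-203-3p fell by 0.36 (0.0454). miR-192-5p and miR-194-5p, which share p53-responsive genes, had changes of -0.06 and 0.03. miR-215-5p was detected on no array.

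The study turned to miRNAs that target growth factors, and the listed miRNAs that act on the FGF pathway are given beside miR-34a, which lowers an FGF receptor. Of 10 listed, all were tested, with 4 higher, 2 lower and 4 not past the unadjusted threshold, beside 79 higher (18.6%) and 69 lower (16.2%) of all 425. Their median change was 0.32. The 4 higher ones were miR-99a-5p (0.94), miR-100-5p (0.72), miR-125b-5p (0.86) and miR-214-3p (0.95), and limma gave 0.00203 to 0.0094 for them before adjustment. miR-322-5p, a relative of miR-15 and miR-16, fell by 0.9999 (0.00285), and miR-327, the miRNA on which the study centred, fell by 0.75 (0.0135). The study chose miR-327 on these same arrays, and the list was written with earlier results of them known, so it is no independent evidence of a direction. The change of miR-34a-5p lay between those of miR-100-5p and miR-125b-5p, and the change of miR-34b-5p lay above all 10.

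**Figure D4:**
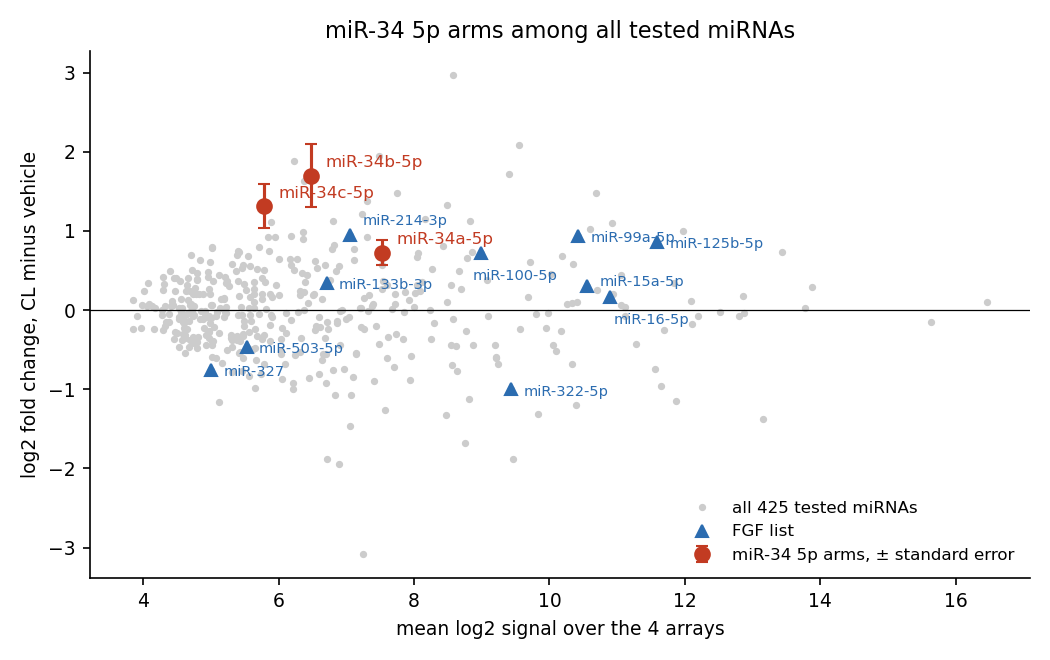
Change after CL (log2 fold change, vertical axis) against the mean log2 signal over the 4 arrays (horizontal axis) for the 425 tested miRNAs in grey, the FGF list as blue triangles and the 3 miR-34 5p arms as red circles with standard errors. The miR-34 arms lie at changes of 0.72, 1.70 and 1.32, and miR-34b-5p and miR-34c-5p are near the upper edge at their signal.

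Marker miRNAs were used to check the labelled fraction. All listed endothelial, leukocyte, fibroblast and mural cell miRNAs, the cell types of an SVF, were detected on all 4 arrays. So were the 2 red cell and 3 muscle miRNAs given below, so detection alone does not single out this fraction. Higher and lower below are limma calls before adjustment, which over all tested miRNAs came to 18.6% and 16.2%, and no marker passed after adjustment (0 of 425 tested miRNAs did). The summed signals on the linear scale, in the order vehicle 1, vehicle 2, CL 1 and CL 2, were 15462, 14176, 5122 and 6432 for the endothelial miR-126 arms, both of which were lower (2 of 2). The fibroblast miRNAs miR-199a-3p, miR-199a-5p and miR-214-3p were higher (3 of 3), with sums of 1973, 1324, 3389 and 3530. Of the 4 leukocyte miRNAs, 2 were higher (miR-142-3p by 2.09 and miR-142-5p by 1.94), miR-223-3p had a change of 0.09, and miR-150-5p fell by 0.89, with sums of 2292, 1719, 3398 and 3309. The miR-34 arms were lower on vehicle 2 than on vehicle 1, and so were the sums of the endothelial, fibroblast and leukocyte lists.

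The red cell miRNAs miR-144-3p and miR-451a were higher (2 of 2), with sums of 8138, 9475, 16769 and 14175. Of the mural cell miRNAs, 1 of 2 was lower, with sums of 633, 534, 392 and 425 (also lower on vehicle 2 than on vehicle 1), and of the muscle miRNAs 0 of 3 passed the unadjusted threshold, with sums of 283, 144, 242 and 275, the lowest on vehicle 2. Of the 7 epithelial and mesothelial miRNAs, 5 were detected on no array, 1 of the 2 that were tested was lower (miR-203-3p), and the sums were 160, 169, 166 and 171. The 3 multiciliated markers, the miR-449 arms, were not tested and had sums of 47.4, 44.3, 49.0 and 52.2. The part of any of these cell types in the change of the miR-34 arms was not tested.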

How the data were processed

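Total RNA of visWAT SVF was labelled with Cy3 and hybridised by the authors to 4 arrays, which Agilent Feature Extraction 10.7.1.1 read into deposited files of linear spot intensity. The authors also deposited a table of normalized log2 values, used here as an alternative. The methods of the study name robust multi-array analysis and SAM. Accordingly, in R 4.3.3 with limma 3.58.1, normexp was fitted to the mean signals of all spots, with neither local background nor offset. Without control and outlier spots, the arrays were then quantile-normalized, and median polish (tolerance 0.01) joined the log2 signals of each miRNA. A miRNA detected by the scanner software on both arrays of at least 1 group was tested, which left 425 of 1247. CL was compared with vehicle with lmFit and eBayes in a two-sided test, and p-values were adjusted over these miRNAs by Benjamini-Hochberg. No spot was saturated (0 of 49880 miRNA spots on each array), and with 2 arrays per group their number limits the precision.

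Groups and replicate numbers come from the sample labels. The labels do not say that the numbers pair the arrays. The deviations of same-numbered arrays from their group means correlated at 0.12 over miRNAs (2 pairs), and the numbers coincide with the slide column.

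The text names the 5 members, the other arm of miR-34a, the miR-449 arms, the p53 and FGF lists (those past the unadjusted threshold with values; miR-192-5p, miR-194-5p and miR-215-5p were added after their values were seen), the marker lists, and the 3 miRNAs with the nearest profile to each tested member. Members and lists were chosen with earlier results of these data known. Alternatives covered the background correction, normalization, summary, filter, test, slide column, probe trend and each array left out. The finer median polish (tolerance 1e-06), alone and with the block, and the keeping of outlier spots were added after seeing the data. The test was also run on simulated arrays with a common spread and independent errors. The real arrays differ from that in their probe trend and uneven spread, so the run does not check the test on them.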

Additional observations from a re-analysis of the deposited data

How the results depend on the processing

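No change of miR-34a-5p, miR-34b-5p or miR-34c-5p and no contrast between the loci was reversed under any alternative. The number of miRNAs past the adjusted threshold, 0 of 425 as reported, was 44 with median centring, 64 with no normalization between arrays, 27 with the scanner total per miRNA, 7 in the deposited log2 table, 2 with an intensity trend in limma, 51 with the probe trend removed, 1 with outlier spots kept, 40 with the replicate block and 109 with that block and the finer median polish. Leaving out 1 array each gave 1 to 230. The number past the unadjusted threshold, 148 as reported, was 91 with median centring, 60 by SAM and 52 by the methods' t-test, and 61 to 263 with 1 array left out.

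The adjusted call was gained by miR-34b-5p and miR-34c-5p without normalization (1.60 and 1.24) and with median centring (1.63 and 1.28). It was gained by all 3 arms with the probe trend removed (0.53 for miR-34a-5p, 1.33 for miR-34b-5p and 1.07 for miR-34c-5p) and with the replicate block and the finer polish (0.72, 1.70 and 1.32). With the replicate block alone it was gained by miR-34b-5p (1.70) and miR-34c-5p (1.32). It was gained by miR-34b-5p and miR-34c-5p also without CL 1 (limma adjusted p-values of 0.0016 and 0.0285) and without CL 2 (0.000341 and 0.00971), while miR-34a-5p then lost its unadjusted call (0.0522 and 0.0774), and by all 3 arms without vehicle 1. With 1 array left out, the changes ran from 0.56 to 0.89 for miR-34a-5p, from 1.13 to 2.26 for miR-34b-5p and from 0.94 to 1.69 for miR-34c-5p. Over the other alternatives the changes ran from 0.53 to 0.83, from 1.103 to 2.56 and from 0.66 to 2.20. The contrast of miR-34b-5p with miR-34a-5p ran from 0.55 to 1.80 and that of miR-34c-5p from 0.10 to 1.37. The standard error was the same for all 3 arms with median centring (0.34), without CL 1 (0.39) and without CL 2 (0.39). limma thus used a common variance there, and the spread of each arm between arrays did not enter its call on its own. Why the calls moved was not tested. The unadjusted methods' t-test gave p-values of 0.05003, 0.0961 and 0.0737 for the arms in the same order (limma: 0.00835, 0.0105 and 0.00715). The 3p arms and, on vehicle 2, the shorter probes of miR-34b-5p and miR-34c-5p were mostly or wholly not well above background.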
